A study of Rattus norvegicus with 14 samples.

Results

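The extracellular signal-regulated kinase (ERK) cascade was represented in CA3 of learning and control rats by 8 probe sets of 5 genes, out of 15923 probe sets on the array. The genes followed were the kinases Mapk3, Map2k1, Map2k2, Braf and Rps6ka1 and the dual-specificity phosphatases Dusp1, Dusp5 and Dusp6. A probe set was taken when the platform annotation named 1 of these 8 genes alone. Map2k1, Map2k2 and Dusp5 had 1 probe set each, Dusp1 had 2 and Dusp6 had 3. Mapk3, Braf and Rps6ka1 had none under this rule, by symbol or gene ID, and are not analysed here. Of the 8 probe sets, 7 passed the filter on dim signals, a mean log2 level of 3.88, and 1 of Dusp1 lay below it.

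Microdissected CA3, the hippocampal subfield of densely interconnected pyramidal neurons, was profiled on Affymetrix RAE230A arrays in 14 male Long-Evans rats aged 3 to 4 months, 1 array per rat and 7 rats per group. All rats of both groups had first been trained in a standard water maze, and 2 to 3 weeks later swam 8 trials, 8 min apart, in a maze at another site. The learning group (Learning Activated in the labels) had orienting cues around the pool and a visible platform that kept its place, whereas the control group had no informative cues and a visible platform that was moved between trials. Both groups had a probe trial of 90 s without the platform 1 h after the last trial, and the tissue was taken straight afterwards. The comparison asks whether encoding a new place changes CA3 transcripts. Cues and platform movement differ together between the groups and cannot be told apart. Both groups swam, so no resting animal is among the samples. The arrays measure RNA and not the phosphorylation through which the cascade signals.

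In this cascade the small GTPase Ras recruits Raf kinases such as Braf, which phosphorylate the kinases MEK1 and MEK2, the products of Map2k1 and Map2k2. These in turn phosphorylate ERK, of which Mapk3 encodes a form, and active ERK acts on nuclear factors and on ribosomal S6 kinases such as the product of Rps6ka1. Dual-specificity phosphatases remove the activating phosphates: the products of Dusp1 and Dusp5 are nuclear, that of Dusp6 is cytoplasmic, and all 3 genes are known as inducible genes through which the pathway limits itself. In hippocampal neurons ERK signalling is known for its part in synaptic plasticity and memory.

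The promoters of the 3 phosphatase genes are printed because Dusp1, Dusp5 and Dusp6 are known as inducible genes and the cyclic AMP response element (CRE) and the CArG box, the element bound by serum response factor, are known elements of activity-induced genes. Each sequence is from RefSeq on the rat assembly GRCr8, 5′ to 3′ on the plus strand, from 250 bases before to 50 bases after the annotated start. Capitals mark a full CRE (TGACGTCA), a CRE core (TGACG) or a CArG box on either strand, and lower case is the rest. RefSeq promoters were matched for 7 of the 8 genes, all but Mapk3. Dusp1 lies at chr10:17184603-17184902, Dusp5 at chr1:262543524-262543823 and Dusp6 at chr7:35979354-35979653.
Dusp1 promoter: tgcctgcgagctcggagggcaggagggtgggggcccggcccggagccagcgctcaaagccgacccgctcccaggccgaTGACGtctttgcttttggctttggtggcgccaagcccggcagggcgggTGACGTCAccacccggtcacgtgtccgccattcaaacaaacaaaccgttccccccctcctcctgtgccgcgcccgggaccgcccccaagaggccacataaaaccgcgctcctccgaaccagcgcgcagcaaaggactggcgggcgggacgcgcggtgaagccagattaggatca
Dusp5 promoter: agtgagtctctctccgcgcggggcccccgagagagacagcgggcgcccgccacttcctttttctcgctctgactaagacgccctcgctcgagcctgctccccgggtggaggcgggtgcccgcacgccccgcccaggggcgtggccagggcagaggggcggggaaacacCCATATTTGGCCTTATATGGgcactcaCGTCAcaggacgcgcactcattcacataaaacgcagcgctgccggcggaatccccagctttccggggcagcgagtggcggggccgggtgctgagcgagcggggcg
Dusp6 promoter: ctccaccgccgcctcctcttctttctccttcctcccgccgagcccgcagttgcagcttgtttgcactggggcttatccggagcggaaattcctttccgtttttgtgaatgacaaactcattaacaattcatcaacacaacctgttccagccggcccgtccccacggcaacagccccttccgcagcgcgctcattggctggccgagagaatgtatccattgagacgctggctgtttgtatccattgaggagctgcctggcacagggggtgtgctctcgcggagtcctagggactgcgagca
The Dusp1 window held a full CRE at bases -124 to -117 from the start, where base 0 is the start itself, and a further CRE core at -172 to -168. The Dusp5 window held 2 CArG boxes side by side, at -82 to -73 and at -72 to -63, and a CRE core on the opposite strand at -55 to -51. Neither CRE form nor a CArG box was found in the Dusp6 window. The CRE was not limited to phosphatase genes. The Braf window, not printed here, held full CREs at -102 to -95 and at -84 to -77. The Map2k2 and Rps6ka1 windows, also not printed, each held a CRE core. Of 33469 rat promoters of the same length, 1.83% held a full CRE, 21.2% a CRE core and 1.64% a CArG box, and every full CRE contains CRE cores. The SP1 letters GGGCGG, found in 33.1% of promoters, occurred 3 times in the Dusp1 window, 2 times in the Dusp5 window and 0 times in the Dusp6 window. Matches to the AP-1 letters TGANTCA (7.33% of promoters), the TATA letters TATAAA (14.2%) and the EGR letters GCGTGGGCG (0.544%) were absent from all 3 windows. These matches describe letters and do not show that a factor binds.

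**Figure D1:**
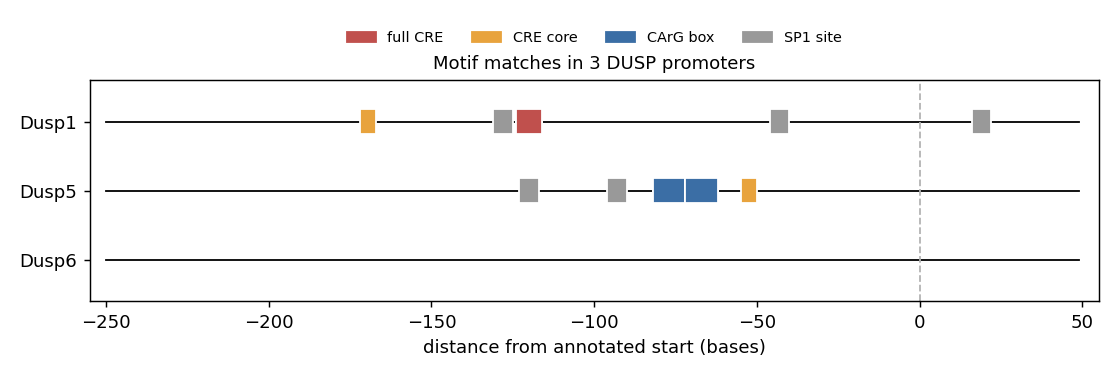
Motif matches on either strand in the promoters of Dusp1, Dusp5 and Dusp6, by distance from the annotated start in bases. Red marks the full CRE, orange a CRE core outside it, blue the 2 adjacent CArG boxes of Dusp5 and grey the SP1 letters, and the Dusp6 line carries no match.

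Pairs of arrays correlated at 0.983 to 0.995 across the 9520 tested probe sets, and control replicate 5, learning replicate 4 and control replicate 3 correlated least with the rest of their groups. In bulk tissue fewer cells of a type and less RNA per cell cannot be told apart. CA3 markers (3 of 6 measured, all above the dim level) averaged a log2 level of 7.06 in learning rats and 7.04 in control rats (exact permutation p = 0.635), and CA1 markers (4 of 6 measured, all above it) 7.40 and 7.43 (p = 0.864), with Wfs1 and Mpped1 at 8.71 and 8.73 in learning rats and at 8.77 and 8.84 in control rats. Dentate granule cell markers averaged 4.27 in learning rats and 4.33 in control rats (exact permutation p = 0.403), with Dsp, Tdo2 and Pdyn under the dim level. Pyramidal neuron markers averaged 11.47 and 11.20 (exact permutation p = 5.83e-04), largely through Camk2a, and choroid plexus markers 3.62 and 4.02 (p = 0.00175), through Ttr and Igfbp2, with the other 5 of 7 under the dim level. The Gapdh 3'/5' signal ratio, on the log2 scale, was 0.448 ± 0.0508 in learning rats and 0.512 ± 0.0603 in control rats (exact permutation p = 0.0443). The mean log2 level of the spike-in probe sets was 6.06 ± 0.0894 in learning rats and 5.96 ± 0.0555 in control rats (exact permutation p = 0.0105). The balance of dim and bright probe sets was the mean of the dimmest minus the brightest tested probe set over 350 genes. These were genes whose tested probe sets differed widely in level, all above the dim level. The balance was -3.25 ± 0.034 in learning rats and -3.42 ± 0.11 in control rats (exact permutation p = 5.83e-04, the smallest possible). It ran from -3.30 to -3.20 in learning rats and from -3.65 to -3.34 in control rats, without overlap. Made from the same expression values, it cannot be told apart from the group in a fit that holds both. The part of these differences in the members' values was not tested beyond the fits given below, where the Gapdh ratio, the balance or the spike-in level enters the model as a covariate.

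None of the member probe sets passed the test between learning and control rats after adjustment. Their largest difference was that of Dusp5, 0.19 on the log2 scale, and the 7 tested differences lay between -0.13 and 0.19. Limma, a linear model with moderated variances fitted to all 9520 tested probe sets and adjusted by Benjamini-Hochberg, called 0 of the 7 at an adjusted p under 0.05, and the lowest adjusted p was 0.179. Over all tested probe sets, 2.55% were called higher and 0.798% lower in the learning group. At an unadjusted p under 0.05 there were 4 of the 7, Dusp5 and 1 Dusp6 probe set higher and Map2k2 and 1 Dusp1 probe set lower, where 19.9% of all tested probe sets passed. That count was 1 with the Gapdh ratio as covariate, 0 with the balance and 1 without the 3 arrays of lowest correlation, and it was 1 to 3 with any single array left out (1 for control replicates 3 and 5 and for learning replicates 3 and 6). An exact permutation test over the 3432 assignments of arrays to groups gave 3 of the 7 at an unadjusted p under 0.05 and 0 after adjustment. In 0 of the 7 were the groups free of overlap, against 2.1% of all tested probe sets. The median difference of the 7 was 0.06, against -0.02 over all tested probe sets, and the median size regardless of sign was 0.10, against 0.06.

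**Figure D2:**
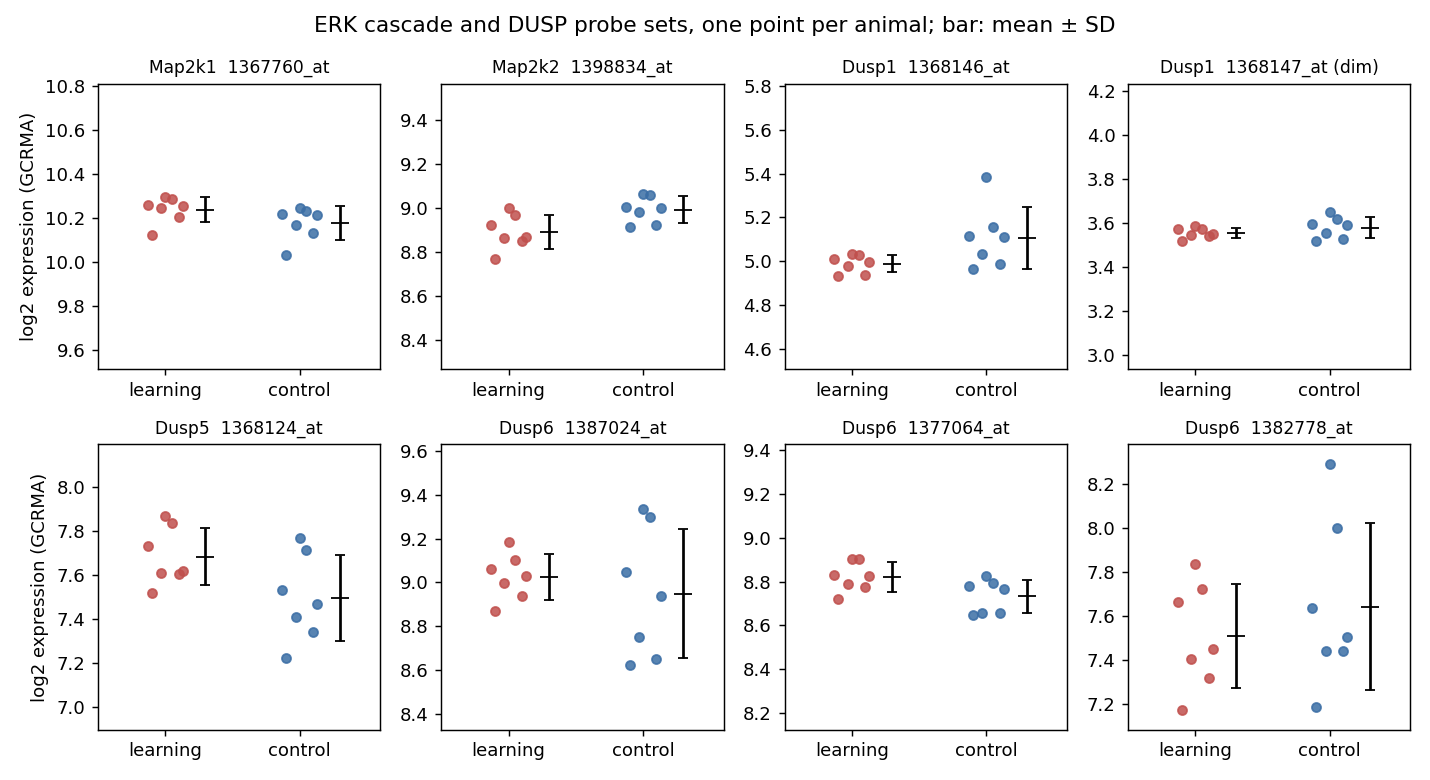
Deposited log2 expression level of the 8 ERK cascade and phosphatase probe sets in learning (red, left) and control (blue, right) rats, 1 point per animal, with bars for the mean ± SD (n = 7 each). Every panel spans the same log2 range, the groups overlap in all 8 panels, and control animals spread more widely at Dusp1 and at 2 of the Dusp6 probe sets.

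Map2k1, which encodes MEK1, was measured by 1367760_at. Its log2 level was 10.12 at the lowest, 10.26 at the median and 10.29 at the highest in learning rats, against 10.03, 10.22 and 10.25 in control rats. The groups overlapped, although 4 learning rats lay above every control rat and 1 control rat, replicate 3, lay below every learning rat. The means were 10.24 ± 0.059 in learning rats and 10.18 ± 0.076 in control rats (SD, n = 7 each). The difference of 0.06 (SE 0.0401, 95% interval -0.02 to 0.15) corresponds to 1.04-fold and did not pass (limma adjusted p = 0.422), and without control replicate 3 it was 0.04 (adjusted p = 0.616).

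Map2k2, which encodes MEK2, was measured by 1398834_at and leaned the other way. Its log2 level was 8.77 at the lowest, 8.87 at the median and 9.00 at the highest in learning rats, against 8.91, 9.00 and 9.06 in control rats. The lower ends of the groups stood apart, with 4 learning rats below every control rat, while the other 3 learning rats lay within the control range. The means were 8.89 ± 0.078 in learning rats and 8.99 ± 0.059 in control rats (SD, n = 7 each). The difference of -0.10 (SE 0.0407, 95% interval -0.19 to -0.01) had an unadjusted p of 0.0250 and a limma adjusted p of 0.179. It was the lowest adjusted p among the members, and the exact permutation test gave 0.0175 unadjusted. The estimate was -0.03 with the balance of dim and bright probe sets as covariate, and -0.05 without the 3 arrays of lowest correlation. With any single array left out it was -0.12 to -0.08. Across the 14 arrays Map2k1 and Map2k2, as deviations from their group means, had no relation that passed (Pearson r = 0.0072, permutation p = 0.981, Spearman rho = -0.02, permutation p = 0.940). Without the 2 arrays farthest from the median of Map2k1 the r was -0.22, and it was 0.59 among learning rats and -0.58 among control rats.

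Dusp1, the gene of a nuclear phosphatase that acts on ERK and on the stress kinases JNK and p38, had 1 probe set above the dim level and 1 below it, both annotated to the same sequence record. At 1368146_at its log2 level was 4.94 at the lowest, 4.997 at the median and 5.03 at the highest in learning rats, against 4.97, 5.11 and 5.38 in control rats. The learning rats were packed closely, 5 of the 7 control rats lay above all of them, and control replicate 7 was the highest. The means were 4.99 ± 0.039 in learning rats and 5.11 ± 0.14 in control rats (SD, n = 7 each). The difference of -0.12 (SE 0.0547, 95% interval -0.24 to -0.0020) had an unadjusted p of 0.0467 and a limma adjusted p of 0.242. Without control replicate 7 it was -0.07 (adjusted p = 0.316). All 7 learning rats lay below the control mean.

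The dim Dusp1 probe set 1368147_at read 3.52 at the lowest, 3.55 at the median and 3.58 at the highest in learning rats, against 3.52, 3.59 and 3.65 in control rats. All 7 learning rats lay within the control range. In a limma fit without the dim filter the difference was -0.02 (SE 0.0200, adjusted p = 0.684). The relation between the 2 Dusp1 probe sets over the 14 arrays did not pass (Pearson r = -0.23, permutation p = 0.595, Spearman rho = -0.21, permutation p = 0.526), and without the 2 arrays farthest from the median of 1368146_at the r was -0.06. The level at the lower probe set is not shown to be above background.

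Dusp5, the gene of a nuclear phosphatase directed at ERK, had the largest difference of the members. At 1368124_at its log2 level was 7.52 at the lowest, 7.62 at the median and 7.87 at the highest in learning rats, against 7.22, 7.47 and 7.77 in control rats. All 7 learning rats lay above the control mean and 4 control rats lay below every learning rat, but 5 learning rats lay within the control range. The means were 7.68 ± 0.13 in learning rats and 7.49 ± 0.20 in control rats (SD, n = 7 each). The difference of 0.19 (SE 0.0833, 95% interval 0.01 to 0.37) is 1.14-fold. It had an unadjusted p of 0.0372 and a limma adjusted p of 0.218, the exact permutation test gave 0.0565 unadjusted, and 11.7% of all tested probe sets had a difference of larger size. With the balance of dim and bright probe sets as covariate it was 0.03 (adjusted p = 0.957), the lowest of 32 alternatives, of which the highest was 0.28. With any single array left out the difference was 0.15 to 0.24.

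Dusp6, the gene of a cytoplasmic phosphatase selective for ERK, was read by 3 probe sets that did not share a direction. At the brightest, 1387024_at, the log2 level was 8.87 at the lowest, 9.03 at the median and 9.19 at the highest in learning rats, against 8.62, 8.94 and 9.34 in control rats. All 7 learning rats lay within the control range, with 2 control rats above and 3 below all of them. The difference of 0.08 (SE 0.108, 95% interval -0.15 to 0.31) did not pass (limma adjusted p = 0.745), and its sign turned under 2 alternatives, to -0.18 with the balance of dim and bright probe sets as covariate and to -0.06 without the 3 arrays of lowest correlation. With any single array left out it was 0.02 (without control replicate 5) to 0.14 (without control replicate 2).

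At 1377064_at the Dusp6 level was 8.72 at the lowest, 8.83 at the median and 8.90 at the highest in learning rats, against 8.65, 8.77 and 8.83 in control rats. Here 3 learning rats lay above every control rat and 3 control rats below every learning rat. The difference of 0.09 (SE 0.0415, 95% interval 0.00012 to 0.18) had an unadjusted p of 0.0497 and a limma adjusted p of 0.250.

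At 1382778_at the Dusp6 level was 7.17 at the lowest, 7.45 at the median and 7.84 at the highest in learning rats, against 7.19, 7.50 and 8.29 in control rats. The ranges nearly coincided at the lower end, and 2 control rats lay above every learning rat. The difference of -0.13 (SE 0.154, 95% interval -0.46 to 0.19) did not pass (limma adjusted p = 0.681), and it ran from -0.21 without control replicate 7 to -0.02 without control replicate 2, the highest array.

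**Figure D3:**
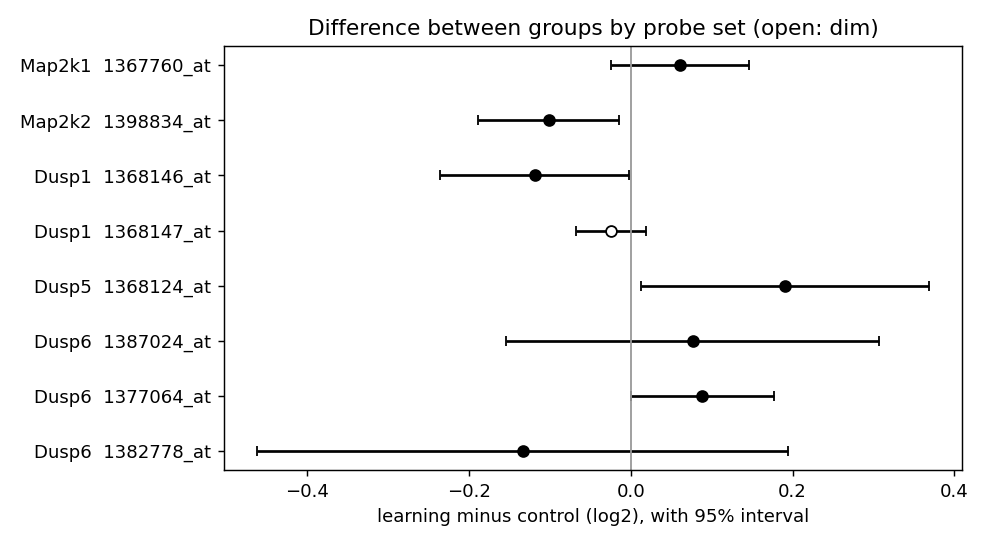
Difference between learning and control means on the log2 scale for each member probe set, with its 95% interval from limma (7 rats per group). The open point is the dim Dusp1 probe set, from the fit without the filter, and every difference lies between -0.13 and 0.19.

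The 3 Dusp6 probe sets were also compared with each other across animals, as deviations from the group means over 14 arrays. Levels at 1387024_at and 1382778_at varied together (Pearson r = 0.86, permutation p = 1.6e-04, adjusted p = 0.00288 over 18 relations computed). Spearman rho was 0.92 (permutation p = 4.0e-05, adjusted p = 7.2e-04). The relation held without the 2 arrays farthest from the median of 1387024_at (r = 0.73), and r was 0.85 among learning rats and 0.89 among control rats. The third probe set, 1377064_at, had r = 0.43 with 1387024_at (permutation p = 0.166, adjusted p = 0.331, rho = 0.41 with permutation p = 0.179) and r = 0.45 with 1382778_at (permutation p = 0.139, adjusted p = 0.313, rho = 0.42 with permutation p = 0.166). Without the 2 arrays farthest on the first axis these were 0.17 and 0.67. Animals with more Dusp6 signal at 1387024_at thus tended to have more at 1382778_at in both groups, while the group means did not separate.

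The spread between animals was wider in control rats at most members. The control SD exceeded the learning SD at 6 of the 7 tested member probe sets, where it did so at 55.1% of all tested probe sets. Of the 7, 3 are probe sets of Dusp6. The count was 5 without control replicate 3, where Map2k1 had an SD of 0.059 in learning rats and 0.044 in control rats. It was 6 without any other single array. The ratio of control SD to learning SD was 3.57 at Dusp1 1368146_at, a ratio that 2.86% of tested probe sets exceeded, and 2.80 at Dusp6 1387024_at, exceeded by 5.43%. Without control replicate 7 the Dusp1 ratio was 1.95, which 14.9% exceeded. The Dusp6 ratio lay between 2.49 and 3.46 with any single array left out, exceeded by 4.16% to 8.33%. With all arrays Map2k2 was the exception, at 0.76. The median ratio over all tested probe sets was 1.07. Control arrays also spread more in the log2 hexokinase 3'/5' ratio (SD 0.0491 in learning rats and 0.492 in control rats) and actin 3'/5' ratio (SD 0.0279 and 0.149). Control replicate 5 had the highest of both ratios, 2.57 and 1.65. The next highest control array, replicate 3, had 1.61 and 1.48. The part of these ratios in the members' spread was not tested. The ratios of SDs are descriptions and were not tested.

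Because Dusp1, Dusp5 and Dusp6 are known inducible genes, each was set against the mean level of 5 immediate early genes, Fos, Junb, Egr1, Nr4a1 and Arc, which neurons induce within minutes to hours of activity. None of those 5 was called between groups: the limma differences were -0.20 for Fos (adjusted p = 0.451), -0.21 for Junb (0.157), -0.08 for Egr1 (0.493), -0.15 for Nr4a1 (0.387) and 0.03 for Arc (0.782). Dusp5 had the closest relation with their mean across the 14 arrays (Pearson r = 0.64, permutation p = 0.0185). That p was 0.0554 adjusted over the 3 phosphatases and 0.166 over all 18 relations, so the relation did not pass by Pearson's r. Spearman rho was 0.74 (permutation p = 0.00635, adjusted p = 0.0571 over the 18). The 18 include relations added after the data were seen. For rho, a p adjusted over the 3 phosphatases alone was not computed. Whether the relation passed by rho over those 3 is therefore not stated here. The unadjusted permutation p-values of rho against the immediate early mean were 0.865 for Dusp1, 0.561 for Dusp6 and 0.00635 for Dusp5. Without the 2 arrays farthest from the median of Dusp5 the r was 0.57, and it was 0.42 among learning rats and 0.81 among control rats.

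Dusp5 had r between 0.34, with Junb, and 0.57, with Nr4a1, when set against each immediate early gene alone, and adjusted permutation p-values of Pearson's r ran from 0.296 to 0.470. Neither Dusp5 (r = 0.46, adjusted permutation p = 0.336) nor the immediate early mean (r = 0.48, adjusted permutation p = 0.307) had a relation with the balance of dim and bright probe sets that passed, and the part of that balance in the relation between them was not tested. The relation of Dusp1 did not pass (Pearson r = 0.04, permutation p = 0.902, rho = 0.05, permutation p = 0.865, r = 0.17 without the 2 farthest arrays), and its r was -0.70 among learning rats and 0.25 among control rats. Dusp6 at 1387024_at had r = 0.16 (permutation p = 0.623, rho = 0.18, permutation p = 0.561, r = 0.43 without the 2 farthest arrays). Between the phosphatases, r was 0.31 for Dusp1 with Dusp5, -0.28 for Dusp1 with Dusp6 and 0.21 for Dusp5 with Dusp6, with adjusted permutation p-values of 0.618, 0.701 and 0.701.

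**Figure D4:**
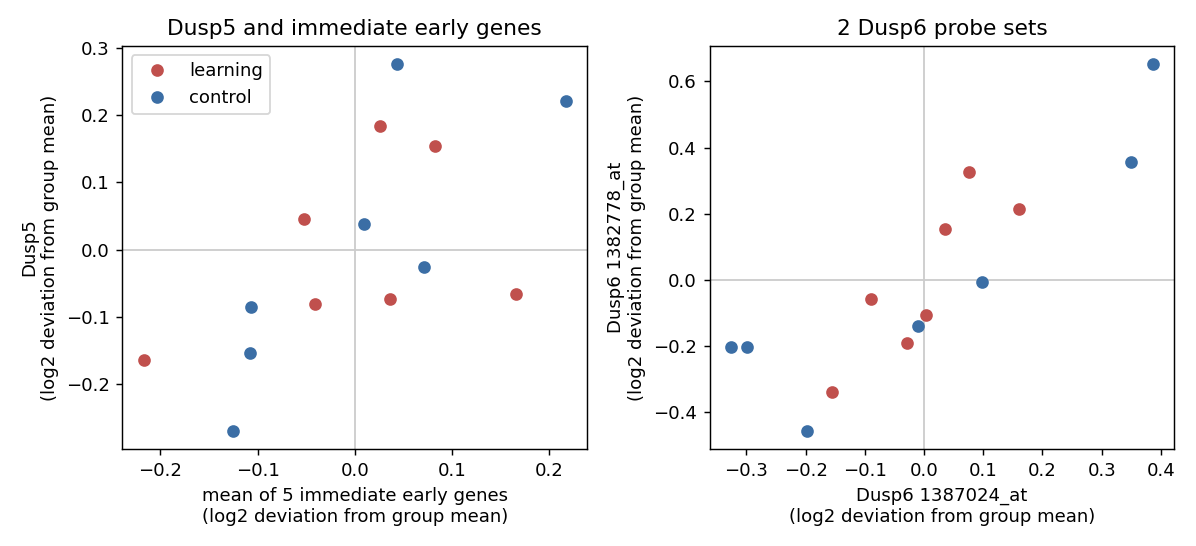
Deviations from the group mean on the log2 scale in 14 rats, learning in red and control in blue: Dusp5 against the mean of 5 immediate early genes (left) and Dusp6 1382778_at against 1387024_at (right). Points scatter along a rising band on the left (r = 0.64) and lie closer to a line on the right (r = 0.86).

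The genes whose levels ran most closely with each member were taken as the 3 tested probe sets of other genes with the highest Pearson r over the 14 arrays of deviations, among 7965 candidates, or 7963 for Dusp6. For Map2k1 these were Septin8 (r = 0.86), Cdc34 (0.84) and Fads2 (0.82), and for Map2k2 they were Chd8 (0.84), Ssr4 (0.84) and Ablim3 (0.82). For Dusp1 they were Pef1 (0.92), Wnt5b (0.89) and Ppp1r15a (0.87), for Dusp5 Cnrip1 (0.84), Dgkg (0.84) and Ank3 (0.83), and for Dusp6 Xpo1 (0.87), Adipor1 (0.85) and Slc35a1 (0.82). Of these 15 genes, Ank3, which encodes the scaffold ankyrin-G, was called between groups, 0.46 higher in learning rats (limma adjusted p = 0.0186). All arrays share the same normalization, and the highest of so many correlations over 14 arrays are high by selection.

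Around the members, the other genes of the pathway were followed in 8 lists of 159 genes, of which 124 were measured and 92 tested, each at its brightest probe set. In learning rats 5 of the 92 were called higher and 0 lower, and 87 did not pass. The count of 5 was 0 with the Gapdh ratio or the balance as covariate, 2 with the spike-in level or without the 3 arrays of lowest correlation, 3 without the dim filter, and 3 to 6 with any single array left out. Over all 6836 genes tested at their brightest probe set, 1.59% were called higher and 0.98% lower. The median difference of the 92 was -0.02, against -0.03 over all genes, and 20 of the 92 (21.7%) had an unadjusted p under 0.05, against 18.6% of all genes. The lists were written with earlier results of these data known, and their counts are descriptions.

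Upstream of the cascade, 0 of 12 tested receptors and adaptors passed, and 3 of the 12 had an unadjusted limma p under 0.05. The receptors Fgfr1 and Fgfr2, which activate Ras after binding fibroblast growth factors, had differences of 0.15 (adjusted p = 0.124) and -0.15 (adjusted p = 0.112) at their brightest probe sets. Their dimmer tested probe sets did not pass either, and the 2 of Fgfr2 lay on the other side of 0, at 0.36 (adjusted p = 0.0826) and 0.48 (adjusted p = 0.105), while that of Fgfr1 was at 0.31 (adjusted p = 0.0622). Ptpn11, the phosphatase SHP2 that relays receptor signals to Ras, had -0.03. Of 15 tested Ras and Rap GTPases and regulators, 2 were called higher in learning rats and 0 lower.

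Rasgrp1, a calcium- and diacylglycerol-responsive exchange factor that loads Ras with GTP, had the largest difference of the pathway genes and was higher in learning rats. Its log2 level at 1369130_at was 8.72 at the lowest, 9.00 at the median and 9.34 at the highest in learning rats, against 7.85, 8.35 and 8.52 in control rats. The groups did not overlap. The difference was 0.71 (SE 0.112), or 1.63-fold (limma adjusted p = 0.00453), and the call was lost at a difference of 0.57 when the Gapdh 3'/5' ratio was added to the model (adjusted p = 0.0531) and at 0.31 with the balance of dim and bright probe sets as covariate (adjusted p = 0.436).

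Rasa1, whose product p120 RasGAP switches Ras off, was higher in learning rats as well. Its log2 level at 1370085_at was 6.75 at the lowest, 6.97 at the median and 7.06 at the highest in learning rats, against 6.17, 6.37 and 6.77 in control rats. All but 1 of the learning rats lay above every control rat. The difference was 0.53 (SE 0.0910), or 1.45-fold (limma adjusted p = 0.0062). The Rasa1 call was lost with a term for the Gapdh ratio (difference 0.51, adjusted p = 0.0610), with the balance (0.38, adjusted p = 0.445) and without the 3 arrays of lowest correlation (0.48, adjusted p = 0.0682). An activator and an inactivator of Ras were thus both higher in learning rats. Rasgrf1, another calcium-responsive exchange factor, had a difference of -0.01 (adjusted p = 0.886).

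At the level of the members themselves, 0 of 5 other tested kinases of the module passed, also 0 at an unadjusted limma p under 0.05. Araf, a Raf kinase, had a difference of -0.06, Map3k1, a kinase upstream of JNK and ERK, -0.13, and the atypical MAP kinase Mapk4 -0.10. Of 12 tested scaffolds and modulators 1 was called higher in learning rats. This was Ywhaz, the 14-3-3 zeta protein that binds phosphorylated Raf, at 12.13 ± 0.05 in learning rats and 11.94 ± 0.08 in control rats (SD, n = 7 each), a difference of 0.20 (SE 0.0396, limma adjusted p = 0.0168). Its groups did not overlap. The Ywhaz call was lost at differences of 0.20 with a term for the Gapdh ratio (adjusted p = 0.0832), 0.19 with the spike-in level (adjusted p = 0.0801) and 0.18 without the 3 arrays (adjusted p = 0.0791). With the balance the difference was 0.12 (adjusted p = 0.554). A dimmer Ywhaz probe set had 0.11 and did not pass (adjusted p = 0.0571). Cnksr2, a scaffold of Ras signalling at synapses, had 0.22 (adjusted p = 0.0606), and Ywhag, another 14-3-3 protein, 0.06 (adjusted p = 0.310).

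Downstream, 0 of 10 tested ERK-activated kinases and nuclear substrates passed and 1 had an unadjusted limma p under 0.05. Srf, serum response factor itself, had a difference of -0.14 (adjusted p = 0.120), and Rps6ka6, a ribosomal S6 kinase, -0.15 (adjusted p = 0.284). Of 8 other tested phosphatases of MAP kinases 0 passed and 2 had an unadjusted p under 0.05. Dusp3 had a difference of 0.05 (adjusted p = 0.728) at its brightest probe set and 0.44 (adjusted p = 0.106) at a dimmer one. Dusp26 had -0.19 (adjusted p = 0.137) and Ppp2ca, a catalytic subunit of protein phosphatase 2A, -0.13 (adjusted p = 0.206). In the parallel JNK and p38 branch 1 of 10 was called higher in learning rats. It was Mapk9, which encodes JNK2, at 7.37 ± 0.14 in learning rats and 6.83 ± 0.32 in control rats (SD, n = 7 each), a difference of 0.54 (SE 0.121, limma adjusted p = 0.0292), with no overlap between groups. The call was lost without any 1 of 6 arrays (control replicate 2 or 3, learning replicate 3, 4, 5 or 7; adjusted p = 0.0515 to 0.0595) and without the dim filter (adjusted p = 0.0713). With added terms in the model its difference was 0.37 with the Gapdh ratio (adjusted p = 0.184), 0.09 with the balance (adjusted p = 0.825), 0.63 with the spike-in level (adjusted p = 0.0602) and 0.54 with the replicate number as a block (adjusted p = 0.0581). Mapk14, which encodes p38 alpha, had -0.13 (adjusted p = 0.142), and Mapk8ip1, a JNK scaffold, -0.03, with 0.04 at a dimmer probe set.

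Among 20 tested immediate early and feedback genes, 1 was called higher in learning rats. Nr4a3, an orphan nuclear receptor, was at 9.16 ± 0.13 in learning rats and 8.86 ± 0.17 in control rats (SD, n = 7 each), a difference of 0.30 (SE 0.0760, limma adjusted p = 0.0421). The call was lost in 11 of the 14 fits that left out 1 array (adjusted p = 0.0529 to 0.0838) and held without control replicate 4 or 6 or learning replicate 7. Of all 32 alternatives it held in 9, while the difference stayed between 0.26 and 0.34. It was 0.28 with the Gapdh ratio (adjusted p = 0.184), 0.26 with the balance (adjusted p = 0.536) and 0.27 with the spike-in level (adjusted p = 0.188) as covariate. Its relative Nr4a2 had 0.49 (adjusted p = 0.0788) at its brightest probe set and 0.22 (adjusted p = 0.269) at the other, and Plk2, an activity-induced kinase, 0.07 (adjusted p = 0.684).

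**Figure D5:**
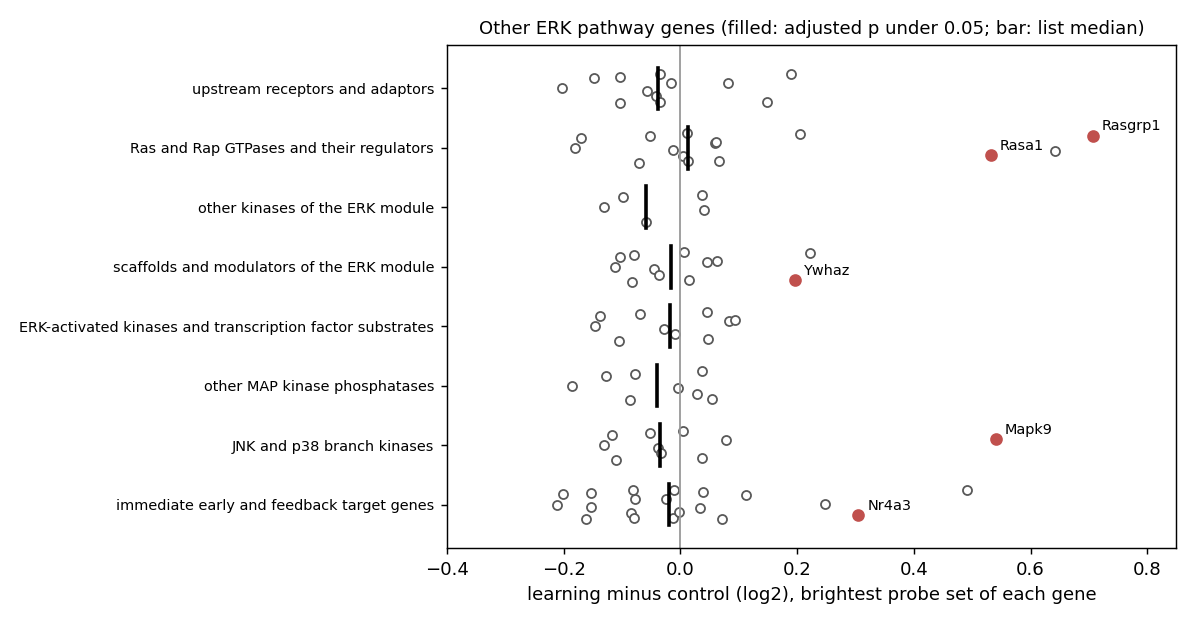
Difference between learning and control means on the log2 scale for 92 other pathway genes, 1 point per gene at its brightest probe set, in 8 lists with the list median as a bar. Filled points are the 5 genes with a limma adjusted p under 0.05, all to the right of 0, and the medians lie between -0.06 and 0.01.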

How the data were processed

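CA3 RNA of 14 rats was measured on Affymetrix RAE230A arrays. The deposited values are log2 expression levels made by the authors with GCRMA, per the submitters' processing notes, which corrects background by probe sequence and normalizes between arrays; its version is not given in the sources used here. Such values can compress differences near background. Groups and replicate numbers came from sample titles, which call the samples biological replicates. Arrays carry no read depth, and their number limits precision. No slide or scan date was used, so no batch was tested.

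Genes came from the platform annotation, which named 1 gene for 12789 probe sets, several for 312 (left unnamed) and did not list 2771; 12754 of the single-gene probe sets matched RefSeq (GRCr8) for current symbols. Control probe sets (57) and 6346 dim ones, under the 40th percentile of mean level, were left out, and 9520 were fitted with limma 3.58.1 in R 4.3.3 (lmFit, eBayes, learning minus control, Benjamini-Hochberg). Exact permutation tests covered 3432 assignments. Relations used deviations from group means with 100000 permutations within groups in Python 3.11.15, two-sided throughout. The reported model had no block. The fitting script was tested on simulated data.

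Named genes were all member probe sets, every called gene of each list, its 2 lowest p-values and its brightest gene, and the 3 genes most like each member. The members, lists and tests were chosen with earlier results of these data known. Alternatives were 3 other dim filters, trended and robust moderation, array weights, 2 normalizations, the replicate block, covariates, single arrays left out, the brightest probe set per gene and the exact test; the actin and spike-in covariates, the 3 arrays left out together, ratios of SDs with single arrays left out, the dimmer probe sets given beside named genes and 15 of the 18 relations were added after seeing the data.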

Additional observations from a re-analysis of the deposited data

Results flagged for a closer look

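The log2 level of Rasgrf1, a calcium-responsive exchange factor for Ras, at 1370996_at was 11.19 in control replicate 3, below the other control rats, which lay at 11.29 or above around a median of 11.30. Its distance to the nearest control rat was 0.616 of the whole control range, past Dixon's 95% critical value for 7 samples. This was the 1 value that stood out among 62 groups checked over 31 probe sets, and chance marks about 1 in 20 groups. None of the 16 groups of member probe sets had such a value.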

How the results depend on the processing

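Member probe sets called stayed at 0 in all 32 alternatives to the limma fit, where the lowest adjusted p was 0.107 (Dusp5), and 2 of 222 member values changed sign, both of Dusp6 1387024_at, -0.18 with the balance of dim and bright probe sets as covariate and -0.061 without the 3 arrays of lowest correlation. With the replicate number as a block, member calls were 0 and pathway genes called higher 5, and 313 probe sets were called in all, against 319; of the 5 called without it, Mapk9 was lost (adjusted p = 0.0581). No pairing by number was seen: same-numbered arrays had correlations of deviations from -0.16 to 0.13, and 3 of 14 arrays correlated best with their own number. The sample titles do not say whether the numbers pair the samples. Pathway genes called higher numbered 3 with no dim filter, 0 with the Gapdh ratio (19 of the 92 at an unadjusted limma p under 0.05), 0 with the balance (16 at that p) and 2 with the spike-in level as covariate, 2 without the 3 arrays, and 3 to 6 with 1 array left out (3 on leaving out learning replicate 3, 4 or 5 or control replicate 2 or 3); 1 was called lower by the exact permutation test (Lamtor2, -0.10). Signs also turned for Araf (0.037), Rps6ka6 (0.0091), Mapk8ip1 (0.023) and Plk2 (-0.10) with the balance, for Rasgrf1 with the spike-in level (0.011) and between single arrays left out (-0.032 to 0.0027), and for Ptpn11 between single arrays left out (-0.056 to 0.00080). Against the immediate early genes among learning rats alone, r was -0.70 for Dusp1 and -0.0082 for Dusp6. The causes were not tested, and the balance, which did not overlap between groups, cannot be told apart from the group. All probe sets called numbered 39 with the Gapdh ratio, 0 with the balance (853 at an unadjusted p under 0.05), 114 with the spike-in level, 177 with the hexokinase ratio, 168 with the dentate level, 158 without a dim filter, 132 with 1 probe set per gene, 96 without the 3 arrays and 163 to 352 with 1 array left out. Dim signals limit Dusp1, whose second probe set lay under the dim level.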

Other observations

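Pathway genes with more than 1 probe set gave further readings at 23 tested probe sets of 18 genes. Limma called 4 of these probe sets higher and 0 lower in learning rats. The shares were 2.55% higher and 0.798% lower over all tested probe sets, but 1.59% and 0.98% over genes at their brightest probe set. No share was computed for dimmer probe sets alone. With the balance of dim and bright probe sets as covariate 0 of all tested probe sets were called, and so none of these 4. The balance did not overlap between groups, so that fit cannot tell it apart from the group. Homer1, a postsynaptic scaffold gene induced by activity, was at 8.12 ± 0.22 in learning rats and 7.45 ± 0.24 in control rats at 1370656_a_at (SD, n = 7 each), a difference of 0.67 (adjusted p = 0.00593). The other 3 of these Homer1 probe sets did not pass, at 0.46, 0.02 and -0.22, and its brightest, 1368318_at, was not called either. Cnksr2, which did not pass at its brightest probe set, was at 7.70 ± 0.11 in learning rats and 7.14 ± 0.14 in control rats at 1370668_a_at (adjusted p = 0.00231). Rasgrp1, called at its brightest probe set, had a difference of 0.98 at 1369129_at (adjusted p = 0.0352). The means there were 9.06 ± 0.19 in learning rats and 8.08 ± 0.65 in control rats (SD, n = 7 each). The GTPase gene Nras had 0.23 at 1387678_at (adjusted p = 0.0295), but -0.07 at its brightest probe set (adjusted p = 0.547). These 4 were named after their values were seen. So was Rasgrf2, an exchange factor for Ras and Rac, at 8.50 in learning rats and 7.86 in control rats, a difference of 0.64 that did not pass (adjusted p = 0.0557).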
